A study of Mus musculus with 22 samples.

Results

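Gene expression in hearts of TRα1+m mice was compared with that in wild-type (WT) hearts when both drank water without thyroid hormone. The comparison set 5 arrays of TRα1+m hearts on water against 6 arrays of WT hearts on water, chosen by their sample titles, out of 22 arrays in the series. TRα1+m mice carry the R384C substitution in 1 allele of Thra, the gene of thyroid hormone receptor α1. All animals were male, on the C57/BL6NCr strain, 3 to 6 months old and housed alone at 30 °C. For 12 days they drank water with 0.01% bovine serum albumin. The other 11 arrays came from 5 TRα1+m and 6 WT mice whose water also held T3 at 0.5 mg/L. Whole hearts were used, so atria, ventricles and all their cell types lie in 1 RNA sample. The mutation is in the germline and not limited to the heart. In the study both purchased WT mice and littermates of the mutants were used, and the labels do not say which of these the 6 WT hearts came from, so genotype and origin cannot be told apart here.

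T3 acts mainly through nuclear receptors that sit on DNA with or without hormone. Without T3 the receptor recruits corepressors and holds many target genes low, and with T3 it exchanges them for coactivators. TRα1 is the main receptor form in heart muscle, and the R384C change lowers its affinity for T3, so that the receptor behaves as if hormone were scarce. Among the best known T3-induced heart genes are pacemaker channels, the fast myosin heavy chain and the calcium pump of the sarcoplasmic reticulum, while the slow myosin heavy chain is a classic T3-repressed gene.

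Values are log2 intensities of Clariom S Mouse probe sets, so that a difference of 1 means a doubling. In the deposited values the genotypes lay on different scales. The median gene probe set ran from 6.99 to 7.09 over TRα1+m arrays and from 6.46 to 6.63 over WT arrays on water, and negative-control probe sets, which match no mouse gene, showed the same shift (0.36 in both kinds of probe set). The 22 arrays were therefore quantile-normalized together, which brought the median genotype difference to -0.02. All levels below are on that normalized scale, where the median negative control lay at 6.41 in TRα1+m and 6.47 in WT hearts. A group mean under that level is called not above background. The gene lists used below were chosen with earlier results of these data known.

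Of 21092 probe sets tested, 8421 differed between TRα1+m and WT hearts at an adjusted p below 0.05 (39.9%, limma with Benjamini-Hochberg adjustment). Of these, 3985 (18.9%) were higher and 4436 (21.0%) lower in TRα1+m hearts. A call with at least a 2-fold difference was met by 1293 probe sets (6.13%), 755 higher (3.58%) and 538 lower (2.55%). The arrays of the groups did not overlap at 4262 probe sets (20.2%). The split between directions depended on the scale. On the deposited values 11516 probe sets were called, of which 85.1% were higher in TRα1+m hearts, against 47.3% after normalization. With so large a share of calls, a gene list is read below against these background shares, and a single called gene against the size of its difference. On the first principal component, which held 36.6% of the variance, TRα1+m arrays on water lay between 34.7 and 68.7 and WT arrays on water between -34.1 and -9.63.

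Thra itself was higher in the mutants. Its levels were 12.25, 12.10, 12.18, 12.37 and 12.06 in TRα1+m hearts, against a lowest, median and highest level of 10.45, 10.75 and 11.43 in WT hearts. Every TRα1+m array lay above every WT array. The difference was 1.39 ± 0.14 (2.61-fold, limma adjusted p = 1.1e-07). Probe set intensities sum over both alleles, so this level does not check the substitution itself. Thrb, the gene of the second T3 receptor, fell by 0.55 ± 0.16 (adjusted p = 0.00975), with overlapping arrays. Of 16 tested receptors, partners and cofactors 2 were higher and 6 lower (median -0.26), against 18.9% and 21.0% of all probe sets. With median centring 1 was higher and 12 lower, and on the deposited values 3 and 3. The lower ones included Rxrb, a retinoid X receptor that pairs with T3 receptors, at -0.80 ± 0.18 (adjusted p = 0.00134). On the deposited values neither Thrb (adjusted p = 0.0924) nor Rxrb (adjusted p = 0.0812) was called. Of 10 tested genes of T3 transport and deiodination, 1 was higher and 1 lower (median 0.16).

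Genes that T3 is known to induce in the heart were mostly lower in TRα1+m hearts, and genes that it represses mostly higher. Of 19 tested T3-induced genes 12 were lower and 1 higher (median -0.45), against 21.0% and 18.9% of all probe sets. Of 12 tested T3-repressed genes 7 were higher and 1 lower (median 0.37). Both medians kept their sign, relative to the median of all genes, under every scaling tried. With values centred on each array's median in place of quantile normalization, 5 T3-repressed genes were called higher and 4 lower.

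Among the T3-induced genes, Klf9, a transcription factor with T3 response elements near its gene, had levels of 11.71, 11.18, 11.13, 11.42 and 11.69 in TRα1+m hearts, against 12.58, 13.53 and 13.67 (lowest, median and highest) in WT hearts. The groups did not overlap, and the difference was -1.93 ± 0.17 (3.81-fold, adjusted p = 2.8e-08). Bcl3, an IκB-family coregulator, fell by 1.59 ± 0.19 (adjusted p = 1.1e-06), with a TRα1+m mean of 5.08 that was not above background. Ppargc1a, a coactivator of mitochondrial genes, was the member of this list that was called higher (0.63 ± 0.12, adjusted p = 0.000258), a call lost with median centring (adjusted p = 0.194). In these hearts it was lower on T3 than on water, by 0.98 in WT (limma adjusted p = 1.9e-06) and 0.88 in TRα1+m hearts (limma adjusted p = 1.5e-05).

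Among the T3-repressed genes, Myh7, the slow myosin heavy chain, had levels of 18.60, 19.20, 18.83, 18.02 and 18.88 in TRα1+m hearts, against 15.31, 16.02 and 16.48 in WT hearts. The lowest TRα1+m array stood well above the highest WT array. The difference was 2.79 ± 0.27 (6.9-fold, adjusted p = 7.2e-08). Tnni1, the slow troponin I of fetal heart, had levels of 6.23, 6.32, 5.92, 6.56 and 7.47 in TRα1+m hearts, against 3.99, 4.56 and 4.91 in WT hearts. The WT group was not above background and the TRα1+m mean lay close to it, so the fitted difference of 2.0 ± 0.20 (adjusted p = 1.8e-07) gives a bound of only 1.01-fold. Kcne1, the auxiliary subunit of the slow delayed rectifier potassium channel, had levels of 9.33, 9.68, 9.31, 10.08 and 9.61 in TRα1+m hearts, against 6.68, 7.14 and 7.87 in WT hearts. The groups did not overlap, and the difference was 2.34 ± 0.28 (5.05-fold, adjusted p = 1.2e-06).

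**Figure D1:**
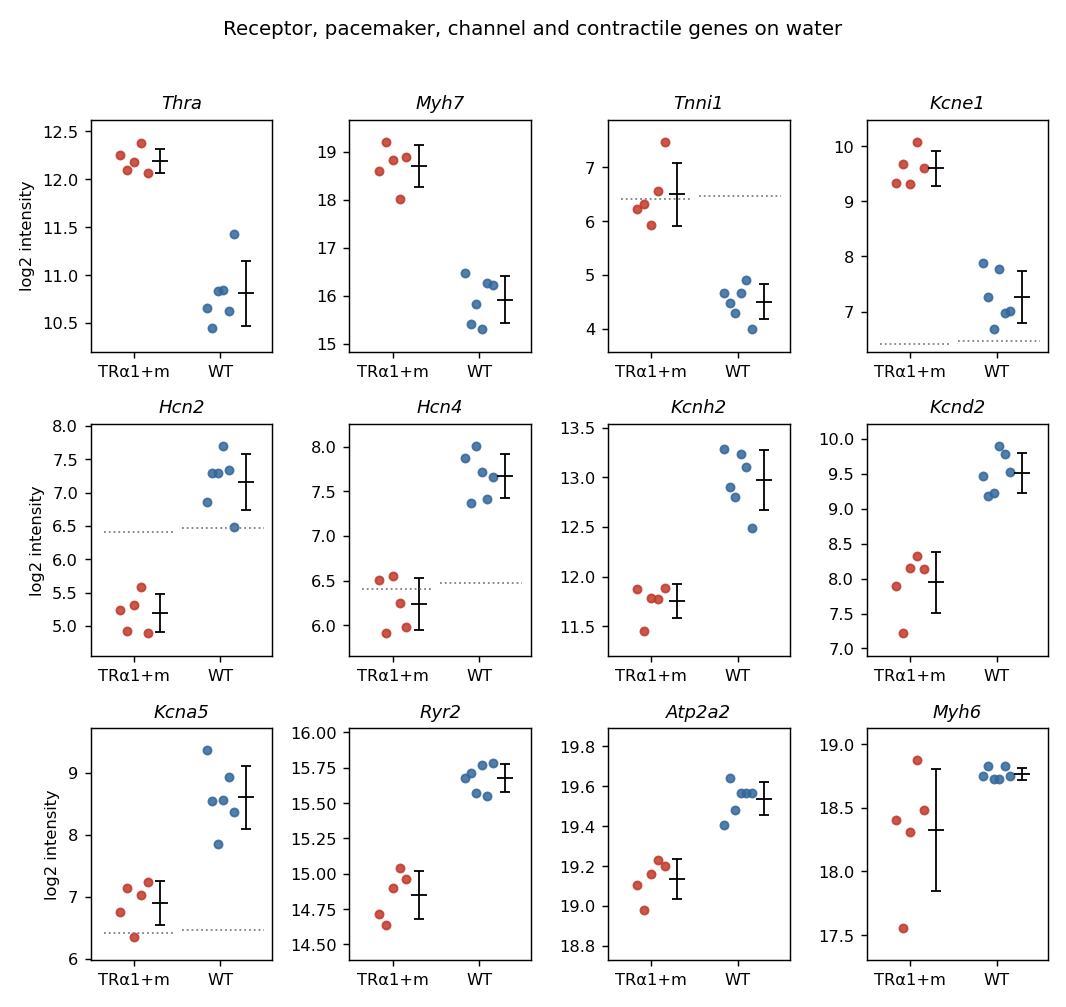
Log2 intensity (vertical axis, a separate range in each panel) of 12 genes in 5 TRα1+m (red, left) and 6 WT (blue, right) hearts on water; points are arrays, black marks the mean ± SD, dotted lines the median negative control. Thra, Myh7, Tnni1 and Kcne1 are higher in every TRα1+m heart, the next 7 genes lower in every TRα1+m heart, and Myh6 overlaps.

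Pacemaker and conduction genes were lower more often than higher. Of 27 tested members 13 were lower and 4 higher (median -0.31), against 21.0% and 18.9% of all probe sets, while 8 were lower and 8 higher on the deposited values. Hcn2 and Hcn4 encode channels of the pacemaker current, Hcn4 being the main form of the sinoatrial node. Hcn2 had levels of 5.24, 4.93, 5.32, 5.58 and 4.89 in TRα1+m hearts, against 6.49, 7.29 and 7.69 in WT hearts. The groups did not overlap, and TRα1+m hearts were not above background. The fitted difference was -1.97 ± 0.22 (adjusted p = 5.2e-07), which with the background as floor means at least 1.65-fold lower. Hcn4 had levels of 6.51, 5.91, 6.55, 6.25 and 5.98 in TRα1+m hearts, against 7.37, 7.69 and 8.0 in WT hearts. Again no arrays overlapped and the TRα1+m mean was not above background. The fitted difference was -1.43 ± 0.19 (adjusted p = 5.5e-06), at least 2.27-fold lower.

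Cntn2, an adhesion protein that marks the conduction system, was at least 1.67-fold lower (fitted difference -1.96 ± 0.20, adjusted p = 1.4e-07). Rgs7 and Rgs6 belong to a family that ends G protein signals, and Rgs6 limits muscarinic slowing of the heart. Rgs7 was at least 1.99-fold lower (fitted difference -2.10 ± 0.25, adjusted p = 1.1e-06), and Rgs6 fell by 1.01 ± 0.13 (adjusted p = 3.5e-06). Cacna1d, the L-type calcium channel of pacemaker cells, was called lower (adjusted p = 0.00491) while neither group was above background, so no fold is given. Gja1, the ventricular connexin 43, fell by 0.67 ± 0.11 (adjusted p = 4.7e-05). Chrm2, the cardiac muscarinic receptor, was not called (-0.08 ± 0.15, adjusted p = 0.715), nor was Cacna1c, the working L-type channel (-0.08 ± 0.10, adjusted p = 0.588), although with median centring Cacna1c was called lower (-0.51, adjusted p = 0.000484).

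The hexamer bound by T3 receptors, AGGTCA, was looked for on both strands in RefSeq promoter windows of 300 bases, from 250 before to 50 after each start (GRCm38.p6). It stood in 16.3% of all 32851 windows. Among tested genes with a window it stood in 15.7% of 2643 genes called higher, 15.6% of 3221 called lower and 16.4% of 9026 not called. The direct repeat of this hexamer with 4 bases between the copies, known as DR4, stood in 0.0152% of all windows and in none of the tested genes' windows. Hcn2 and Ryr2, the calcium release channel described below, are shown because both are T3-induced, both were lower in TRα1+m hearts and both windows hold the hexamer. Below are the 250 bases before each start, 5′ to 3′ on the gene's strand, with the hexamer in capitals on whichever strand it lies (TGACCT is AGGTCA on the opposite strand). The Hcn2 bases are chr10:79716384-79716633 on the plus strand, with hexamers from bases 2 and 83, and the Ryr2 bases are chr13:12106946-12107195 on the minus strand, with a hexamer from base 134. A match of letters is a description and not a site.
Hcn2: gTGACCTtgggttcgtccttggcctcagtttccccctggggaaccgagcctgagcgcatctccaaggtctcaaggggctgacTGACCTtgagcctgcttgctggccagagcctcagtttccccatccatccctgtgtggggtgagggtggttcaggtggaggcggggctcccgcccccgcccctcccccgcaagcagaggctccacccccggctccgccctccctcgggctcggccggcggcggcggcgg
Ryr2: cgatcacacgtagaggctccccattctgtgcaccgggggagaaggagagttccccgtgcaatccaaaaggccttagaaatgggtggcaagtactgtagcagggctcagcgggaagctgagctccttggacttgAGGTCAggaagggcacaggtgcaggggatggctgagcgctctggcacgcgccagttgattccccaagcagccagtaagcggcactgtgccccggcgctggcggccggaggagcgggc

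Potassium channel genes also moved more often down than up. Of 41 tested members 15 were lower and 6 higher (median -0.20), against 21.0% and 18.9% of all probe sets. On the deposited values 11 were lower and 11 higher. The lower ones included channels that repolarize the heart. Kcnh2, which carries the rapid delayed rectifier current, had levels of 11.87, 11.46, 11.79, 11.77 and 11.88 in TRα1+m hearts, against 12.49, 13.00 and 13.29 in WT hearts. Kcnd2, a channel of the transient outward current, had levels of 7.90, 7.22, 8.16, 8.32 and 8.14 in TRα1+m hearts, against 9.18, 9.50 and 9.89 in WT hearts. Kcna5, a channel of the ultrarapid outward current, had levels of 6.76, 7.15, 6.34, 7.02 and 7.23 in TRα1+m hearts, against 7.84, 8.55 and 9.36 in WT hearts. In none of these genes did the groups overlap. Kcnh2 fell by 1.22 ± 0.19 (adjusted p = 2.5e-05), Kcnd2 fell by 1.56 ± 0.20 (adjusted p = 3.3e-06) and Kcna5 fell by 1.70 ± 0.23 (adjusted p = 6.8e-06).

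Kcnip2, the partner of Kcnd2 and Kcnd3 channels, fell by 0.47 ± 0.11 (adjusted p = 0.00205). Kcna7 was at least 2.08-fold lower (fitted difference -1.66 ± 0.19, adjusted p = 6.6e-07), and Kcna1 was called lower while neither group was above background, so no fold is given. Kcnj3, a subunit of the acetylcholine-gated channel of atria, fell by 0.99 ± 0.20 (adjusted p = 0.00055). Against this direction Kcne1 was higher, as given above, and Kcna4, a slow transient outward channel, was at least 1.61-fold higher (fitted difference 0.96 ± 0.16, adjusted p = 6.6e-05). Without single arrays in turn, 3 to 5 potassium channel genes were called higher and 13 to 16 lower.

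Of 29 tested calcium cycling genes 8 were lower and 5 higher (median -0.16), shares near the 21.0% and 18.9% of all probe sets, but with values centred on each array's median 16 were lower and 0 higher. Ryr2, the release channel of the sarcoplasmic reticulum, had levels of 14.71, 14.64, 14.90, 15.04 and 14.96 in TRα1+m hearts, against 15.55, 15.70 and 15.78 in WT hearts. Atp2a2, the calcium pump SERCA2, had levels of 19.10, 18.98, 19.16, 19.23 and 19.20 in TRα1+m hearts, against 19.40, 19.57 and 19.64 in WT hearts. The groups overlapped for neither gene. Ryr2 fell by 0.83 ± 0.09 (1.77-fold, adjusted p = 5.5e-07) and Atp2a2 fell by 0.40 ± 0.09 (1.32-fold, adjusted p = 0.00111). Atp2a2 is among the brightest probe sets of the array. Camk2b, a calcium-calmodulin kinase, fell by 1.24 ± 0.19 (adjusted p = 2.1e-05), and Atp2b1, a calcium pump of the cell membrane, fell by 0.83 ± 0.12 (adjusted p = 1.7e-05). Casq2, which buffers calcium in the sarcoplasmic reticulum, was not called (-0.10 ± 0.10, adjusted p = 0.423), but was with median centring (-0.66, adjusted p = 2.9e-05). Slc8a1, the sodium-calcium exchanger and a T3-repressed gene, was higher by 0.43 ± 0.13 (adjusted p = 0.0102), but centred on the array median its difference was -0.01.

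In the thick filament 6 of 19 tested genes were lower and 3 higher (median -0.24). In the thin filament and Z-disc 7 of 35 were lower and 7 higher, against 21.0% and 18.9% of all probe sets. With median centring the counts were 11 lower and 1 higher for the thick filament and 18 and 2 for the thin filament and Z-disc. Myh6, the fast myosin heavy chain, had levels of 18.40, 17.56, 18.31, 18.88 and 18.48 in TRα1+m hearts, against 18.72, 18.75 and 18.83 in WT hearts. Array 2 of TRα1+m was the lowest of all, and array 4 lay above all WT arrays. Myh6 fell by 0.44 ± 0.14 (adjusted p = 0.018), and without TRα1+m array 2 it fell by 0.25 (adjusted p = 0.0611). It fell by 0.67 on the deposited values (adjusted p = 6.3e-05) and by 1.17 with median centring (adjusted p = 1.1e-07). Myl1, a myosin light chain of fast muscle, had levels of 13.54, 14.21, 12.92, 12.88 and 13.43 in TRα1+m hearts, against 15.40, 15.62 and 15.98 in WT hearts. The groups did not overlap, and the difference was -2.24 ± 0.18 (4.73-fold, adjusted p = 4.8e-09). Myom1, which crosslinks the M-band, fell by 0.66 ± 0.09 (adjusted p = 7.1e-06). Its relative Myom3 was at least 1.70-fold lower (fitted difference -1.44 ± 0.16, adjusted p = 6.9e-07), and Lmod3, which nucleates actin filaments, fell by 0.79 ± 0.09 (adjusted p = 1.2e-06). Mybpc3, cardiac myosin-binding protein C, fell by 0.43 ± 0.11 (adjusted p = 0.00337) with overlapping arrays. Tnni3, the adult cardiac troponin I, was higher by 0.50 ± 0.09 (adjusted p = 0.000112), though its difference was -0.01 with median centring, and Myl2, the ventricular light chain, was not called (-0.15 ± 0.08, adjusted p = 0.146) but was called lower on the deposited values (-0.34, adjusted p = 0.00216).

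Of 21 tested stress and hypertrophy genes 3 were higher and 2 lower (median -0.24). That is 23.8% called, under the 39.9% of all probe sets. With median centring 1 was higher and 9 lower, and array 2 of TRα1+m weighed on the list. Acta1, the skeletal actin that rises in stressed hearts, had levels of 12.05, 16.85, 12.21, 12.02 and 12.41 in TRα1+m hearts, against 13.60, 13.92 and 16.02 in WT hearts. TRα1+m array 2 stood far above the other TRα1+m arrays. Acta1 was not called (-1.23 ± 0.74, adjusted p = 0.194), but without array 2 it fell by 2.16 (adjusted p = 0.00444). Ankrd1, a stretch-responsive muscle protein, had levels of 17.54, 18.79, 17.52, 17.28 and 17.62 in TRα1+m hearts, against 18.36, 18.43 and 18.60 in WT hearts, again with array 2 highest among TRα1+m hearts. It fell by 0.70 ± 0.20 (adjusted p = 0.00814) with all arrays and by 0.96 (adjusted p = 4.6e-05) without array 2. Without array 2, 2 stress genes were called higher and 6 lower. Nppb, the ventricular natriuretic peptide, fell by 1.26 ± 0.40 (adjusted p = 0.0163) with overlapping arrays, a call lost without TRα1+m array 1 or array 4 (adjusted p = 0.0588 and 0.0673). Nppa, the atrial one, was not called (-0.07 ± 0.11, adjusted p = 0.643), but on the deposited values it was called lower (-0.27, adjusted p = 0.0455). Fhl1, a muscle LIM protein, was higher by 1.03 ± 0.29 (adjusted p = 0.00716), a call lost with median centring (adjusted p = 0.0964).

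Of 9 atrial markers 2 were called lower and 0 higher (median -0.29), a share near the 21.0% of all probe sets, and 6 were lower with median centring. The mean over the markers ran from 12.8 to 14.2 over TRα1+m arrays and from 13.8 to 14.7 over WT arrays, and these ranges overlap. Their part in the differences above was not tested. Bmp10, an atrial growth factor, had levels of 12.67, 15.02, 3.90, 6.13 and 13.69 in TRα1+m hearts, against 13.51, 14.22 and 15.11 in WT hearts. TRα1+m arrays 3 and 4 lay under background while the other TRα1+m arrays overlapped the WT arrays. The difference was -4.01 ± 1.5 (adjusted p = 0.0373), and the call was lost when any of 7 single arrays was left out (adjusted p between 0.0513 and 0.156). In bulk tissue fewer cells of a type and less RNA per cell cannot be told apart.

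Apart from these groups, the largest called rises among named genes were led by Scd4, a stearoyl-CoA desaturase of the heart that makes monounsaturated fatty acids. Scd4 had levels of 13.03, 11.84, 12.35, 12.16 and 11.70 in TRα1+m hearts, against 7.46, 8.25 and 9.38 in WT hearts. The groups lay far apart, and the difference was 3.95 ± 0.28 (15.5-fold, adjusted p = 9.4e-10). Cep128, a protein of the centriole, was higher by 2.94 ± 0.22 (7.65-fold, adjusted p = 2.0e-09). Cdkn1a, the cyclin-dependent kinase inhibitor p21, had levels of 10.07, 10.57, 9.35, 9.78 and 9.98 in TRα1+m hearts, against 6.94, 7.19 and 7.54 in WT hearts. Its groups did not overlap, and the difference was 2.70 ± 0.27 (6.5-fold, adjusted p = 1.7e-07). Bex1 was higher by 2.28 ± 0.17 (4.84-fold, adjusted p = 1.7e-09), and Rgs2, which ends signals of Gq-coupled receptors, was higher by 2.18 ± 0.32 (4.53-fold, adjusted p = 1.4e-05). Pcbd1, a pterin dehydratase, was not above background in WT hearts and at least 3.03-fold higher in TRα1+m hearts (adjusted p = 3.8e-08). Tmem232, with WT hearts also not above background, had a fitted difference of 2.60 ± 0.17 (adjusted p = 5.2e-10) but a bound of only 1.03-fold.

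Apart from Bmp10, whose arrays overlapped, the largest fitted falls among named genes were led by Retnla, a resistin-like protein made by alternatively activated macrophages. Retnla had levels of 5.49, 3.36, 5.0, 5.33 and 4.02 in TRα1+m hearts, against 7.27, 8.03 and 9.12 in WT hearts. TRα1+m hearts were not above background, and Retnla was at least 3.13-fold lower there (fitted difference -3.44 ± 0.36, adjusted p = 2.2e-07). Aqp1, the water channel of endothelium and red blood cells, had levels of 12.79, 12.34, 12.82, 12.51 and 12.70 in TRα1+m hearts, against 14.40, 14.92 and 15.01 in WT hearts. Its groups were far apart, with a difference of -2.19 ± 0.14 (4.56-fold, adjusted p = 3.8e-10). Slc46a3, a transporter of lysosomes, fell by 2.43 ± 0.23 (adjusted p = 4.5e-08), and Coq10b, which binds coenzyme Q, fell by 2.07 ± 0.22 (adjusted p = 3.4e-07). Tmem196 was at least 2.22-fold lower (fitted difference -2.71 ± 0.17, adjusted p = 2.8e-10). Ppbp, a chemokine of platelets, fell by 2.58 ± 0.61 (adjusted p = 0.00177), with WT array 1 at 12.0 and the other WT arrays between 8.53 and 9.31.

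The circadian clock was the pathway list with the largest share of called members. The clock runs as a loop in which ARNTL with CLOCK or NPAS2 switches on Per, Cry, Nr1d and the output factors Dbp, Tef and Hlf, whose products in turn restrain the loop. Of 18 tested clock genes 12 were lower and 3 higher in TRα1+m hearts (median -0.86), against 21.0% and 18.9% of all probe sets. Relative to the median of all genes, the list median lay between -0.84 and -0.86 under every scaling tried. With median centring 13 clock genes were lower and 2 higher, and on the deposited values 9 were lower and 5 higher. After quantile normalization the 3 higher ones were the activators Arntl, Npas2 and Clock. Arntl had levels of 10.30, 10.44, 10.08, 10.76 and 10.57 in TRα1+m hearts, against 5.53, 7.69 and 9.95 in WT hearts, with no overlap and a difference of 2.79 ± 0.50 (adjusted p = 0.000138). Npas2 was higher by 1.38 ± 0.31 (adjusted p = 0.00109) with overlapping arrays and Clock by 0.67 ± 0.14 (adjusted p = 0.000623), a call lost with median centring (adjusted p = 0.116).

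Most of the repressors and output factors were lower. Dbp had levels of 14.99, 15.27, 14.98, 14.23 and 14.83 in TRα1+m hearts, against 15.39, 17.32 and 17.69 in WT hearts, and fell by 2.18 ± 0.41 (4.54-fold, adjusted p = 0.000213). Ciart, a repressor of the loop, was at least 5.69-fold lower (fitted difference -3.06 ± 0.53, adjusted p = 9.7e-05). Per3 fell by 1.94 ± 0.34 (adjusted p = 0.000118), Hlf by 1.76 ± 0.29 (adjusted p = 5.1e-05) and Nr1d2 by 1.65 ± 0.21 (adjusted p = 2.9e-06), none with overlapping arrays. Nr1d1 fell by 1.20 ± 0.29 (adjusted p = 0.00266), Cry1 by 0.89 ± 0.16 (adjusted p = 0.000132) and Per2 by 1.21 ± 0.38 (adjusted p = 0.0145, arrays overlapping). Per1 was not called (-0.83 ± 0.38, adjusted p = 0.0831), but was called lower without WT array 3 (adjusted p = 0.0325) or WT array 6 (adjusted p = 0.0214). Of the 15 called clock genes, 14 had WT array 6 as the WT array closest to the TRα1+m hearts. Dbp, for instance, was at 15.4 on WT array 6 and between 17.1 and 17.7 on the other WT arrays. Without that array 13 clock genes were called lower and 4 higher. None of the sources used here gives the hour at which each heart was taken.

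**Figure D2:**
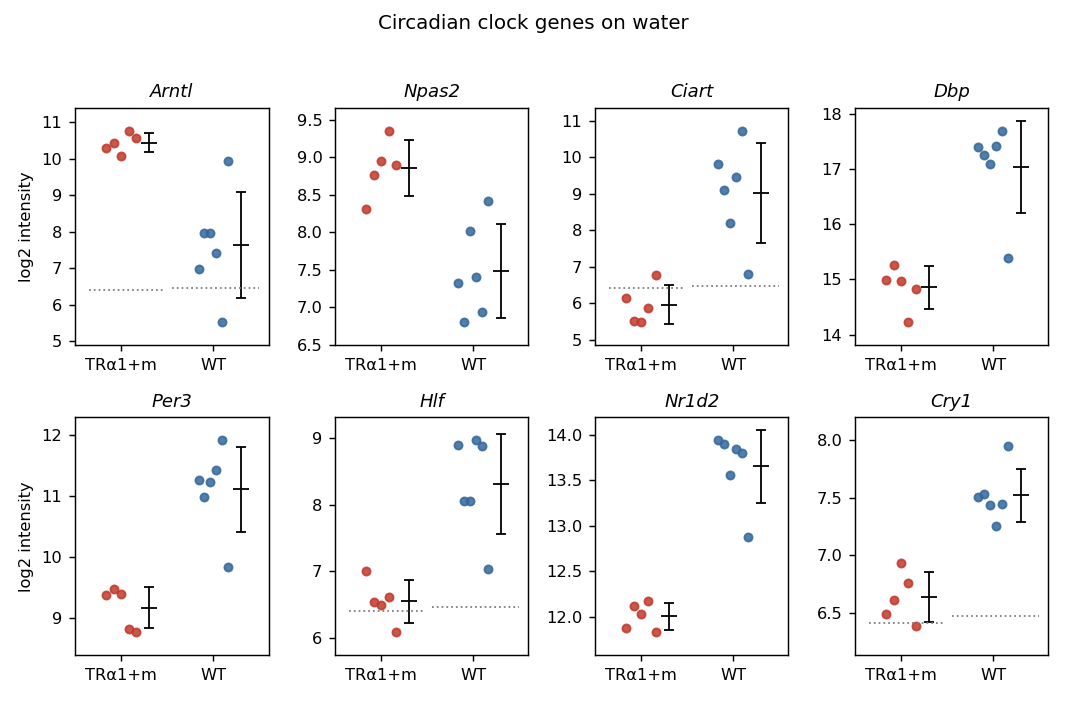
Log2 intensity (vertical axis, a separate range in each panel) of 8 clock genes in 5 TRα1+m (red, left) and 6 WT (blue, right) hearts on water; points are arrays, black marks the mean ± SD, dotted lines the median negative control. Arntl and Npas2 are higher and the other 6 genes lower in TRα1+m hearts on average, and WT array 6, the rightmost blue point of each panel, lies nearest to the TRα1+m hearts in all panels but that of Cry1.

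Clock genes moved together, so the letters of 2 of their promoters are shown. The E-box CACGTG, bound by ARNTL with its partners, stood on at least 1 strand in 7.15% of all windows, and among tested genes in 9.16% of those called higher, 11% of those called lower and 9.07% of those not called. The D-box TTATGNAA, bound by Dbp, Tef and Hlf, stood in 3.39% of all windows, and in 3.90%, 3.48% and 3.53% of those classes. Both motifs were added after the data were seen, and CACGTG reads the same on both strands. Ciart (chr3:95882229-95882478, minus strand) is shown because its upstream bases hold 3 E-boxes, from bases 135, 193 and 207. Per3 (chr4:151044666-151044915, minus strand) is shown because they hold D-boxes from bases 46 and 93. Capitals mark the motifs in the 250 bases before each start, 5′ to 3′ on the gene's strand.
Ciart: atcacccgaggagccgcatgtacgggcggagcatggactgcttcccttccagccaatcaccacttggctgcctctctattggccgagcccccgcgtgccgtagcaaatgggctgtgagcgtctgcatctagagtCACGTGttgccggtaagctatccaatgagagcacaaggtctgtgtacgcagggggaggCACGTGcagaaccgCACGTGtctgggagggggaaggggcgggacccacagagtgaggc
Per3: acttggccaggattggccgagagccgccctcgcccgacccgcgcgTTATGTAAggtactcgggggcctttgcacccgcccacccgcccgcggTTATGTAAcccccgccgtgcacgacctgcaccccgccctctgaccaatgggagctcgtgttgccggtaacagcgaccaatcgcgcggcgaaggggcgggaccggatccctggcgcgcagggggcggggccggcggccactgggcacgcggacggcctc

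Immediate early genes, the fast transcripts of stimulated cells, were more often higher. Of 21 tested members 11 were higher and 1 lower (median 0.43), against 18.9% and 21.0% of all probe sets. Nr4a1, an orphan nuclear receptor, had levels of 7.62, 9.78, 8.49, 9.15 and 8.63 in TRα1+m hearts, against 6.13, 6.90 and 7.37 in WT hearts. The groups did not overlap, and the difference was 1.93 ± 0.27 (adjusted p = 7.4e-06). Its relative Nr4a2 was higher by 1.5 ± 0.22 (adjusted p = 1.4e-05), Atf3, a stress-induced factor, by 0.67 ± 0.16 (adjusted p = 0.00208) and Egr1, a zinc finger factor, by 1.05 ± 0.41 (adjusted p = 0.0469). The Egr1 call was lost when any of 8 single arrays was left out (adjusted p between 0.0680 and 0.139). Egr3 was the member called lower, at least 2.0-fold (fitted difference -1.64 ± 0.16, adjusted p = 7.4e-08). Without TRα1+m array 2, 7 members were called higher, and without WT array 3 and TRα1+m array 5 together 6 were.

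Interferon-induced and macrophage genes were lower in TRα1+m hearts. Of 26 tested interferon-induced genes 13 were lower and 0 higher (median -0.60), against 21.0% and 18.9% of all probe sets. On the deposited values 4 were lower and 2 higher. Rsad2, an antiviral enzyme, had levels of 6.87, 8.14, 7.03, 7.20 and 7.0 in TRα1+m hearts, against 8.24, 8.99 and 9.11 in WT hearts, with array 2 the highest of the TRα1+m arrays. It fell by 1.55 ± 0.20 (adjusted p = 2.3e-06). Bst2, which tethers virions, fell by 1.09 ± 0.22 (adjusted p = 0.00045) and Gbp3, a guanylate-binding protein, by 0.92 ± 0.20 (adjusted p = 0.000783). Ifit3 was not called (-0.22 ± 0.16, adjusted p = 0.271), but was with median centring (-0.48, adjusted p = 0.0381). Of 26 members 9 had both groups not above background, Oas2 among them.

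Of 13 tested macrophage markers 10 were lower and 0 higher (median -0.63), against 21.0% and 18.9% of all probe sets. On the deposited values 4 were lower and 1 higher. The mean over the markers ran from 8.84 to 9.40 over TRα1+m arrays and from 9.43 to 9.93 over WT arrays, so no arrays overlapped. Mrc1, the mannose receptor of resident macrophages, had levels of 10.69, 11.38, 11.18, 11.23 and 11.07 in TRα1+m hearts, against 12.01, 12.20 and 12.64 in WT hearts, and fell by 1.15 ± 0.14 (adjusted p = 1.3e-06). Lyz2, lysozyme of myeloid cells, fell by 0.96 ± 0.17 (adjusted p = 0.00012), C1qb, a complement chain, by 0.90 ± 0.16 (adjusted p = 9.8e-05) and Csf1r, the receptor that keeps macrophages alive, by 0.63 ± 0.15 (adjusted p = 0.00179). Lyve1, a marker of a resident subset, was not called (0.28 ± 0.19, adjusted p = 0.242) but was called higher on the deposited values (0.50, adjusted p = 0.0272). With WT array 6 left out 7 macrophage markers were called lower. Of 6 lymphocyte markers 0 were called, with 5 not above background in either group, and of 7 neutrophil markers, none above background, 1 was called lower.

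**Figure D3:**
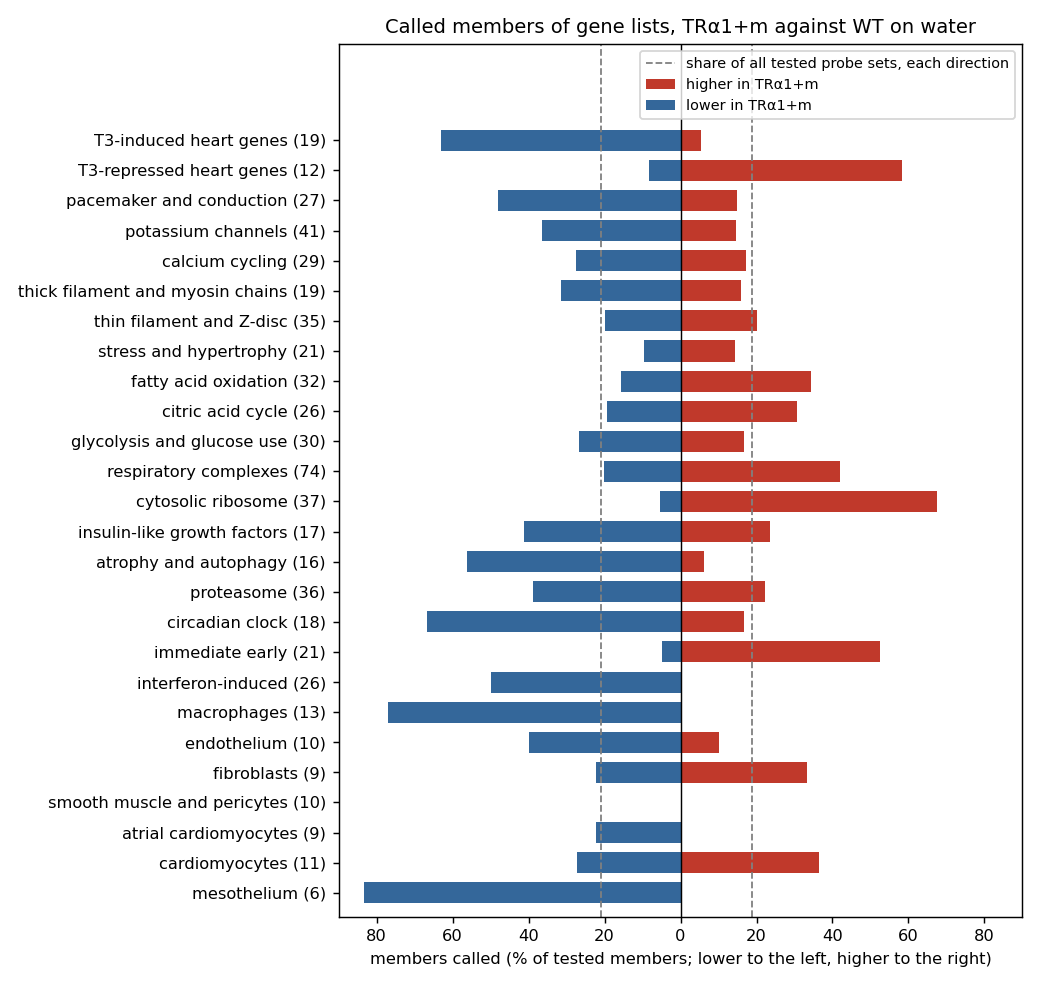
Percent of tested members called in each of 26 gene lists, lower in TRα1+m to the left (blue) and higher to the right (red), with the number of tested members in brackets; dashed lines mark the share of all tested probe sets, 21.0% lower and 18.9% higher. On the quantile-normalized values macrophage, mesothelium, clock and T3-induced genes lean to lower and cytosolic ribosome, T3-repressed and immediate early genes to higher.

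Whether genes of energy metabolism were higher or lower as groups depended on the scaling. After quantile normalization 62.2% of respiratory complex genes were called, and 50% of fatty acid oxidation and of citric acid cycle genes. Of all tested probe sets 39.9% were called, 18.9% higher and 21.0% lower. The means of these lists lay above 14, and at such levels 57.1% of all probe sets were called. Of 74 tested genes of the respiratory complexes 31 were higher and 15 lower (median 0.18), of 32 genes of fatty acid oxidation 11 were higher and 5 lower (median 0.14), and of 26 citric acid cycle genes 8 were higher and 5 lower (median 0.07). With values centred on each array's median the counts were 7 higher and 37 lower for the respiratory complexes, 4 and 13 for fatty acid oxidation and 4 and 15 for the citric acid cycle. Their medians relative to all genes were then -0.15, -0.13 and -0.17, so no direction is given for these lists. The scalings differ most at high levels, as given further below.

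Single genes of these pathways are given after quantile normalization, and their sizes shifted with the scaling too. With median centring the rises were smaller, at 0.31 for Atp5g1, 0.39 for Sdha, 0.39 for Idh3b and 0.35 for Tpi1, all still called. Acot1 was then at 1.96. The falls were then larger, for instance -1.67 for Dlat and -1.38 for Pdhb. Acot1, which splits acyl-CoA, had levels of 10.53, 9.55, 9.96, 10.48 and 9.07 in TRα1+m hearts, against 7.24, 7.82 and 8.23 in WT hearts, a difference of 2.14 ± 0.22 (4.39-fold, adjusted p = 2.2e-07) with no overlap. Angptl4, an inhibitor of lipoprotein lipase, had levels of 11.69, 8.77, 10.42, 13.21 and 8.52 in TRα1+m hearts, against 7.02, 7.59 and 8.91 in WT hearts, a difference of 2.79 ± 0.60 (adjusted p = 0.000826). Its arrays overlapped. Plin5, which coats lipid droplets, was higher by 1.10 ± 0.18 (adjusted p = 6.7e-05), and Acadm, the medium-chain acyl-CoA dehydrogenase, by 0.75 ± 0.12 (adjusted p = 3.7e-05, or 0.0711 with median centring). Dlat and Pdhb, parts of the pyruvate dehydrogenase complex, fell by 1.29 ± 0.10 (adjusted p = 2.6e-09) and by 0.90 ± 0.10 (adjusted p = 4.0e-07), and Hk2, the insulin-sensitive hexokinase, fell by 1.08 ± 0.12 (adjusted p = 5.2e-07). Tpi1, a glycolytic isomerase, was higher by 0.77 ± 0.09 (adjusted p = 1.6e-06). In the citric acid cycle Idh3b was higher by 0.86 ± 0.09 and Sdha, which also sits in complex II, by 0.82 ± 0.11 (adjusted p = 2.8e-07 and 3.3e-06). Within complex I, Ndufb8 was higher by 1.22 ± 0.11 and Ndufb3 lower, at -1.06 ± 0.12 (adjusted p = 3.7e-08 and 7.6e-07). Atp5g1, a subunit of the ATP synthase ring, was higher by 1.06 ± 0.09 (adjusted p = 1.5e-08), and Perm1, a muscle regulator of mitochondrial genes, fell by 0.79 ± 0.10 (adjusted p = 2.5e-06).

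Cytosolic ribosomal protein genes were higher as a group. Of 37 tested members 25 were higher and 2 lower (median 0.42), against 18.9% and 21.0% of all probe sets. With median centring 14 were higher and 5 lower. The mean over the members ran from 14.3 to 14.6 over TRα1+m arrays and from 13.7 to 14 over WT arrays, with no overlap. Rps9 was higher by 1.6 ± 0.15 (adjusted p = 5.4e-08), Rpl19 by 1.44 ± 0.11 (adjusted p = 2.6e-09) and Rpl22 by 1.36 ± 0.10 (adjusted p = 2.6e-09). Ribosomal protein genes have many processed pseudogenes of near-identical sequence, and probe sets can read both.

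Of 17 tested genes of the insulin-like growth factor axis 7 were lower and 4 higher (median -0.20), against 21.0% and 18.9% of all probe sets. The counts were 11 lower and 2 higher with median centring and 4 and 6 on the deposited values. Irs1, an adaptor of insulin and IGF1 receptors, had levels of 6.62, 6.69, 6.63, 7.41 and 7.22 in TRα1+m hearts, against 8.66, 8.76 and 8.96 in WT hearts, with no overlap and a difference of -1.87 ± 0.15 (3.66-fold, adjusted p = 9.1e-09). Irs2, its relative, fell by 1.05 ± 0.18 (adjusted p = 7.6e-05) and Foxo1, a factor that insulin signals keep out of the nucleus, by 1.25 ± 0.17 (adjusted p = 7.1e-06). Igf1 itself was higher by 1.27 ± 0.20 (adjusted p = 4.0e-05). Of 16 tested atrophy and autophagy genes 9 were lower and 1 higher (median -0.39), or 6 and 2 on the deposited values, among them Fbxo32, the muscle ubiquitin ligase atrogin-1, which fell by 0.90 ± 0.14 (adjusted p = 2.3e-05), and Ulk1, the kinase that starts autophagy, which fell by 1.17 ± 0.16 (adjusted p = 8.2e-06).

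The counts of the following lists shifted with the scale, and those with median centring stand beside them. After quantile normalization 21.0% of all probe sets were called lower and 18.9% higher. Of 36 tested proteasome genes 14 were lower and 8 higher (22 and 3 with median centring). Psmd2 and Psma6 fell by 1.02 ± 0.11 and by 0.90 ± 0.10 (adjusted p = 2.8e-07 and 6.7e-07), while Psmb6, a catalytic subunit, was higher by 1.09 ± 0.13 (adjusted p = 1.3e-06). Among chaperones, with 7 of 25 lower and 7 higher (15 and 1), Bag3, which guides damaged muscle proteins to autophagy, fell by 1.4 ± 0.14 (adjusted p = 1.9e-07) and Hsph1, a heat shock protein, by 1.69 ± 0.17 (adjusted p = 1.2e-07). Among antioxidant genes, with 8 of 27 lower and 5 higher (14 and 4), Gpx3, a secreted glutathione peroxidase, fell by 1.42 ± 0.17 (adjusted p = 1.0e-06), Prdx3, the mitochondrial peroxiredoxin, fell by 0.86 ± 0.09 (adjusted p = 3.9e-07), and Nqo1, a quinone reductase, was higher by 1.63 ± 0.16 (adjusted p = 7.0e-08). Of 30 genes of autonomic signalling 9 were higher and 6 lower (4 and 13, so no direction is given), and Grk5, a kinase that desensitizes β-adrenergic receptors, was higher by 1.52 ± 0.13 (adjusted p = 1.1e-08). Rgs4, a further regulator of G protein signals, fell by 1.04 ± 0.16 (adjusted p = 2.0e-05).

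Markers of further cell types were examined in the same way, against 21.0% of all probe sets called lower and 18.9% called higher. Of 11 cardiomyocyte markers 4 were higher and 3 lower, but with median centring 0 were higher and 8 lower. The mean over these markers ran from 16.4 to 16.5 in both genotypes. Of 10 endothelial markers 4 were lower and 1 higher (8 and 0 with median centring, 3 and 2 on the deposited values). Vwf, von Willebrand factor, fell by 1.57 ± 0.18 (adjusted p = 6.8e-07), Eng by 0.65 ± 0.12 (adjusted p = 0.000182) and Flt1, a VEGF receptor, by 0.62 ± 0.12 (adjusted p = 0.00033). Cdh5, the endothelial cadherin, was not called (0.13 ± 0.11, adjusted p = 0.368), but was called lower with median centring (-0.31, adjusted p = 0.0344). Of 9 fibroblast markers 3 were higher and 2 lower (0 and 3 with median centring), and of 10 smooth muscle and pericyte markers 0 were called. Of 38 matrix genes 7 were lower and 4 higher (3 and 15 on the deposited values), and among them Ltbp4, which binds latent TGFβ, fell by 1.72 ± 0.20 (adjusted p = 8.5e-07) and Loxl1, an elastin crosslinker, fell by 1.31 ± 0.15 (adjusted p = 6.4e-07). Mmp14, a membrane protease, was higher by 1.45 ± 0.19 (adjusted p = 5.3e-06).

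Of 6 markers of mesothelium, the cell layer around the heart, 5 were lower and 0 higher (median -1.06), against 21.0% and 18.9% of all probe sets. Msln and Upk1b were at least 1.19-fold and 1.52-fold lower (adjusted p = 0.000148 and 0.000276), with TRα1+m hearts not above background, while Wt1 was not called and not above background in either group. The mean over the markers ran from 5.58 to 6.51 over TRα1+m arrays and from 6.61 to 7.18 over WT arrays. The part of mesothelial tissue in other differences was not tested. Of 8 markers of lung and epithelium none was above background.

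How often a probe set was called depended on its level. The share ran from 31.4% under a mean of 5 to 57.1% above 14. Of 8588 probe sets with neither group above background 30.5% were called, against 46.4% of the other 12504. Negative-control probe sets carried onto the same scale and adjusted among themselves were called at 4.86%. Their adjustment was apart from that of the genes, so this share cannot be compared with the shares above. After normalization the median difference lay between -0.04 and 0.01 in every level class. Quantile normalization gives all arrays the same distribution, so this is no check of the scaling. In the deposited values, relative to the median of all genes, it ran from 0.16 in the class of levels 5 to 6 to -0.34 above 14.

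**Figure D4:**
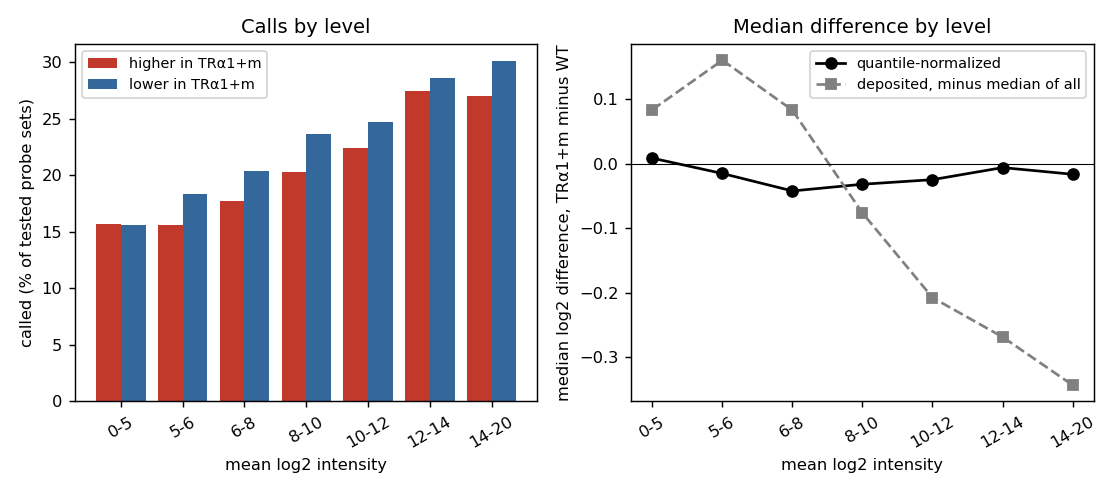
Left, percent of tested probe sets called higher (red) or lower (blue) in TRα1+m hearts on water by mean log2 intensity; right, median log2 difference, TRα1+m minus WT, in the same classes after quantile normalization (black circles) and in the deposited values minus the median of all genes (grey squares). Calls rise with level in both directions, and the deposited values tilt from 0.16 in the class of 5 to 6 to -0.34 above 14.

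The arrays of T3-treated mice give the same comparison in other animals. On T3, 7517 probe sets were called between the genotypes (35.6%). Of the 8421 calls on water 5454 (64.8%) were also called on T3 in the same direction and 26 in the opposite one. The genotype by T3 interaction tests whether the difference on T3 departs from that on water, and it was called for 88 probe sets (0.417%), 78 of which were called on water. In 71 of those 78 the interaction had the opposite sign to the difference on water. That takes in differences that shrank on T3 and differences that changed sign. The interaction is the T3 difference minus the water difference. An opposite sign is therefore favoured by construction among probe sets called on water.

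Myh7, Tnni1, Kcne1 and Hcn2 differed by genotype on water and were not called on T3. The T3 differences were 0.02 ± 0.27 for Myh7, -0.28 ± 0.20 for Tnni1, -0.16 ± 0.28 for Kcne1 and -0.15 ± 0.22 for Hcn2 (interaction adjusted p = 0.000529, 0.000196, 0.00247 and 0.00466). Nr4a1, at -0.17 ± 0.27 on T3, was likewise not called there (interaction adjusted p = 0.00808). On T3 the TRα1+m and WT means were 4.23 and 4.51 for Tnni1 and 5.40 and 5.56 for Kcne1. The median negative control lay between 6.20 and 6.46 on those arrays, so these T3 differences compare values at background. Tnni1 lay close to background on water too, so its interaction is not shown to be signal. Aqp1 kept part of its difference on T3, at -0.69 ± 0.14 (interaction adjusted p = 0.000379). Other differences were of like size on T3 with no interaction called: 1.19 ± 0.14 for Thra, -0.80 ± 0.09 for Ryr2, -1.66 ± 0.20 for Kcnd2 and -1.36 ± 0.23 for Kcna5 (interaction adjusted p = 0.86, 0.977, 0.964 and 0.856). Hcn4 was at -0.54 ± 0.19 on T3 (interaction adjusted p = 0.22), so its difference was not shown to depend on T3.

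Interferon-induced genes differed by genotype in the other direction on T3. There, 11 of the 26 were higher in TRα1+m hearts and 0 lower (median 0.53), and the interaction was called for 10. Of all probe sets 35.6% were called on T3, both directions together, and 0.417% had a called interaction. Rsad2 was at 0.71 ± 0.20 and Gbp3 at 1.03 ± 0.20 on T3 (interaction adjusted p = 0.000159 and 0.000754). Among macrophage markers 1 was higher and 1 lower on T3 (median 0.11), with 3 interactions called, C1qb among them (interaction adjusted p = 0.0386). The clock list stayed lower, with 11 of 18 genes lower and 3 higher on T3 and no interaction called.

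**Figure D5:**
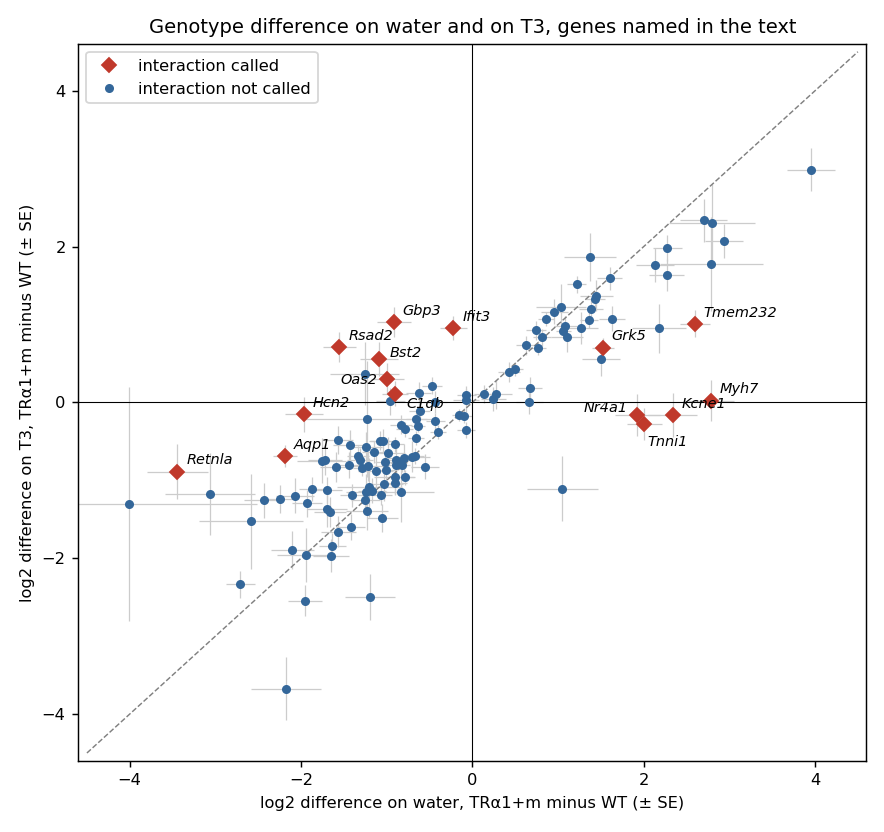
Log2 difference, TRα1+m minus WT, on T3 (vertical axis) against that on water (horizontal axis) for the genes named in the text, with SE bars; red diamonds have a called genotype by T3 interaction, blue circles none, and the dashed line marks equal differences. Most genes lie along the line, while Myh7, Kcne1, Tnni1, Nr4a1 and Hcn2 lie near 0 on T3 and the interferon-induced Rsad2 and Gbp3 change sign. For Kcne1 and Tnni1 neither group was above background on T3.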

How the data were processed

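Whole-heart RNA of 22 male mice was labelled with the WT Pico kit and read on 1 Clariom S Mouse array per mouse. The series description counts as many mice as arrays, so each array was taken as a separate mouse. Precision is limited by how many arrays each group has. Per the labels, groups and replicate numbers come from the sample titles. The deposited values are log2 intensities per probe set, which the authors made with the Transcriptome Analysis Console 4.0.1; RMA (background correction, normalization and probe summary) appears in the submitters' processing notes. The sources used here give neither the genome build nor whether both genotypes went through RMA jointly. The table holds 22206 gene and 5222 negative-control probe sets. A platform table gave 1 gene to 19572 gene probe sets, several to 0 and none to 2634, with symbols updated through Entrez identifiers. Adrb1 could not be matched to a probe set and was not analysed here.

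Gene probe sets were quantile-normalized over the 22 arrays. Those with a mean deposited log2 value above 4 (21092, of which 18573 are named) were modelled in limma (version 3.58.1, R 4.3.3; moderated by eBayes) by the means of the 4 groups, with Benjamini-Hochberg adjustment over all of them and calls at an adjusted p below 0.05. Negative controls were carried onto the normalized scale by interpolation, and lower bounds take the higher of an array's median negative control and the dim signal. Replicates shared at most 0.0312% of identical values. In a test on simulated data, in which 200 of 21092 probe sets were changed, a log2 change of 1 was recovered in 89.0% and of 0.5 in 29.0% of cases for the genotype comparison on water, with 3.28% false calls.

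Members and lists were chosen with earlier results of these data known. Named genes are the 10 called rises and 10 called falls of largest difference (1 gene per probe set, not predicted, arrays not overlapping, brighter group above background), up to 4 called and 2 uncalled members of each list, and the study's genes; a gene with several probe sets is read from the brightest. Angptl4, Cacna1d, Gja1, Clock, Egr1, Kcna4, Kcnip2, Ppargc1a, Npas2, Cry1, Tef and Per2 were added after their values were seen. Other scalings, filters, variance models, a block for the replicate number and the omission of single arrays were tried as alternatives. Promoter windows from RefSeq (GRCm38.p6) were matched through Entrez identifiers to 14890 tested genes.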

Additional observations from a re-analysis of the deposited data

Results flagged for a closer look

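In 15 of 264 groups of arrays of named genes, 1 array stood apart from the others of its group by Dixon's criterion; chance alone sets about 1 in 20 groups apart in this way. TRα1+m array 2 stood apart for Acta1 (16.85, the others between 12.02 and 12.41), Ankrd1 (18.79, the others between 17.28 and 17.62), Kcnh2 (11.46, the others between 11.77 and 11.88) and Rsad2 (8.14, the others between 6.87 and 7.20). Single TRα1+m arrays also stood apart for Tmem232 (array 1, 6.02), Cntn2 (array 5, 4.43) and Lrrn4, a mesothelial gene (array 4, 6.58).

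WT array 6 stood apart for Dbp (15.39), Nr1d2 (12.88), Egr1 (10.98) and Ppargc1a (15.27), each time on the side of the TRα1+m hearts. WT array 1 stood apart for Ppbp (11.99) and Gja1 (16.05), and WT array 3 for Atp5g1 (17.39) and Rps9 (11.16).

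The genotype by T3 interaction, limma adjusted over all tested probe sets, was called for 15 of 132 named genes. The difference was smaller on T3, with an interaction below 0, for Myh7 (-2.76), Kcne1 (-2.50), Tnni1 (-2.28), Nr4a1 (-2.09), Tmem232 (-1.59) and Grk5 (-0.82). For Kcne1, Tnni1 and Tmem232 neither group was above background on T3. An interaction above 0 was found for Retnla (2.56), Rsad2 (2.26), Gbp3 (1.95), Hcn2 (1.81), Bst2 (1.64), Aqp1 (1.49), Oas2 (1.30), Ifit3 (1.18) and C1qb (1.02), each with a negative difference on water.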

How the results depend on the processing

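The count of 8421 calls on water stayed within 1.5 times under all alternatives but a 1.5-fold minimum. That minimum left 4843 calls, 2380 higher and 2463 lower. A like count is not the same set of probe sets. Of the 8421, 5680 were also called in either direction on the deposited values. Centred on the gene median 7056 of them were called, and centred on the negative-control median 7089. On the deposited values 9803 were higher and 1713 lower, since the genotypes lie 0.36 apart there. Values centred on the gene median gave 2786 higher and 6302 lower, and centred on the negative-control median 3083 and 5854. Leaving out each array in turn gave 7444 to 8351 calls, 3519 to 3932 higher and 3877 to 4419 lower. The interaction was called for 58 probe sets on the deposited values and for 88, 118 and 89 with no filter, with array weights and with the replicate block.

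Replicate numbers only name arrays. Same-numbered TRα1+m and WT arrays on water correlated between -0.15 and 0.25 in their deviations, and 2 of 5 TRα1+m arrays correlated best with their own number. With the replicate number as a block 8372 probe sets were called on water.

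Of 121 called named genes, 104 kept direction and call under all alternatives tried. Most of these genes were named because they were called or differed most in these same data. A high share was thus favoured by the choice and does not carry over to other calls. Of all 8421 calls, 5680 were also called in either direction on the deposited values. Direction turned for Slc8a1 (-0.0067) and Tnni3 (-0.0090) when centred on the gene median, and, among genes not called, for Cdh5 (-0.31 centred on the gene median, -0.27 on the negative-control median), Chrm2 (0.11 on the deposited values) and Ifit3 (0.0215 on the deposited values). Of named genes not called, Cacna1c, Casq2, Myl2, Nppa, Per1, Ifit3 and Cdh5 were called when centred on the gene median. Myl2, Nppa, Lyve1 and Wt1 were called on the deposited values, and Myl2 also with a trended variance and with unmoderated variances. Per1 was also called with array weights, with the replicate block and without both outlying arrays. The size of the difference moved by over 1.5 times in 24 of the 121 called genes on the deposited values and in 24 and 22 when centred on the gene median and the negative-control median. Leaving out 1 array ended the calls of Myh6, Nppb, Bmp10 and Egr1. The calls of Thrb, Rxrb, Per2 and Cacna1d were lost on the deposited values. Of the 8588 probe sets with both group means under the median negative control 2619 were called, and there a difference is not shown to be signal. A 1.5-fold minimum also removed Thrb, Atp2a2, Mybpc3 and Kcnip2.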

Other observations

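Replication-dependent histone genes, a family picked out after the data were seen, were higher in TRα1+m hearts on water at 28 of 54 tested members and lower at 4 (median 0.47), against 18.9% and 21.0% of all probe sets. On T3 40 were higher and 2 lower (median 1.01). Of 27 cell division genes 1 was higher and 3 lower on water (median 0.05), and 19 of these had neither group above background.

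Olfactory, vomeronasal and taste receptor genes were also picked out after the data were seen. Of 1303 tested members 321 were higher and 107 lower (median 0.19), against 18.9% and 21.0% of all probe sets. Of these members 1203 had neither group above the median negative control. With the deposited values 807 were higher and 18 lower.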
